A study of Homo sapiens with 6 samples.

Results

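Of the 200602 PARalyzer clusters called in total RNA of HEK293 cells, 4816 (2.40%, 95% Wilson interval 2.33 to 2.47) carried the repeat label SINE, for short interspersed element, and these clusters are described here. They were taken as every row of the Total cluster table with that label, with no filter on reads, and were set beside the 179063 Total clusters with no repeat class. PAR-CLIP feeds cells the uridine analog 4-thiouridine (4SU), crosslinks RNA to protein with UV light of 365 nm and reads crosslinked positions as T-to-C conversions. The 6 libraries came from HEK293, an established human embryonic kidney line, and all cells were grown with 4SU and carried a doxycycline-inducible transgene for HuR or for green fluorescent protein (GFP). The 3 background libraries G20, G35 and G45 were gel slices at about 20, 35 and 45 kDa of FLAG immunoprecipitations from cells with FLAG-tagged GFP, which is not known to bind RNA. HuR was represented by 2 replicate libraries of the immunoprecipitated protein, and Total by 1 library of crosslinked, RNase T1-digested RNA that was depleted of ribosomal RNA and never immunoprecipitated. Each slice and Total were single libraries, and the slices are different regions of a gel and not replicates, so conditions were not tested, and the labels do not say whether the HuR replicates came from separate cultures.

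SINEs are short retrotransposons that borrow the machinery of LINE elements and are transcribed from promoters of RNA polymerase III. Alu elements, the primate SINEs, descend from 7SL RNA, the RNA of the signal recognition particle, and hold a pair of 7SL-like arms joined by an A-rich linker and followed by an A-rich tail. MIR elements are far older and descend from tRNA rather than from 7SL RNA. A SINE inside a gene is copied into its pre-mRNA in the sense of the element, with the A-rich stretches as A, or in the reverse sense, with those stretches as U. HuR (ELAVL1) is an RNA-binding protein known for its preference for U-rich and AU-rich RNA.

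The sequences below show what was counted, each read 5′ to 3′ on the strand of the RNA with every T in capitals, since T is the base that can be converted. The first 3 were taken from the A-rich and T-rich clusters with the most reads because they held at least 5 conversion locations, and lie in KIAA1191 (chr5:175774206-175774229, minus strand, 3′ UTR, named AluSx1), SMC1A (chrX:53406164-53406183, minus strand, 3′ UTR, named MIR) and EIF3I (chr1:32696833-32696860, plus strand, 3′ UTR, named AluSp).
KIAA1191: ccaTcaaTaaaTaaaTaaaTaaag
SMC1A: cacTTTTTaTcacTTacTag
EIF3I: ccTgTaaTcccaccacTTTTTTTTTaag
The next 4 were among the clusters with the most reads in Total, in HYDIN (chr16:70993230-70993246, minus strand, 3′ UTR, named MIR), between genes on chromosome 3 (chr3:100325359-100325376, minus strand, named MIRc), in an intron of RPS18 (chr6:33241661-33241677, plus strand, named AluSx) and in MIR5100 (chr10:43493082-43493100, plus strand, named MIR).
HYDIN: TagTaaaTacTcaaacg
MIRc on chromosome 3: cacccaacTTacacTcag
RPS18: ccTcgTcaTTTaaTTaa
MIR5100: gaTcccagcggTgccTcTa
The last 5 were among the clusters with the most reads in slices or HuR. They lay in introns of PRR5-ARHGAP8 (chr22:45241389-45241400, plus strand, named MIR), DHX8 (chr17:41565430-41565448, plus strand, named AluSx4), PADI3 (chr1:17584339-17584356, plus strand, named MIRb) and CDC42EP1 (chr22:37961098-37961113, plus strand, named MIR), and opposite an intron of RBFOX1 (chr16:5419471-5419487, minus strand, named MIRb). The leading clusters in PSD3 and MALRD1, given below, are not printed. Positions are on hg19, and the sequences of all 4816 clusters matched GRCh37 at their stated positions.
PRR5-ARHGAP8: gTTTgaaTccTg
DHX8: aaggTcgTgggTTcgagac
PADI3: TaTcTcaTccTggggcTg
CDC42EP1: gTaTgggTTTaaacga
opposite RBFOX1: cTgaaagcaTcTaagTg

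The libraries held from 6187300 (G35) to 38644636 reads (G20) that map to 1 place in the genome. The 10 sites with the most reads took 76.5% of the reads of G20 and 61.9% of those of Total, and 2.46% to 21.1% of the others. RPM below is the count of reads scaled to 1000000 of these reads, and 3 reads correspond to 0.0776 RPM in the deepest library and 0.485 RPM in the shallowest. SINE clusters held 72484 reads, or 0.202% of Total. All SINE-labelled groups, which are sites with any read, held 300160 reads at 130492 sites, or 0.836% of Total. Intervals are 95% Wilson intervals and cover counting error only, because reads carried no molecular identifiers.

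SINE clusters were shallow and short, and held more conversion events per 100 reads than clusters without a repeat class. The median SINE cluster held 7 reads (quartiles 6 and 11) over 22 bases, compared to 9 reads (quartiles 6 and 16) over 21 bases without a repeat class. Only 7.43% of SINE clusters reached 25 reads, compared to 15.7%, and 24.0% held the minimum of 5 reads, compared to 17.2%. At least 2 conversion locations were seen in 45.3% of SINE clusters (interval 43.9 to 46.8), compared to 54.6% (54.4 to 54.8). Summed over clusters there were 38.8 conversion events per 100 reads, compared to 23.4. The sum leans on single clusters, since a cluster in HYDIN, described below, held 6285 of the reads, all converted. The median cluster differed less, with 26.98 events per 100 reads compared to 23.8. The classes were not matched for reads per cluster, so this difference cannot be told apart from that in depth. Nearly complete conversion at a single location, meaning events in at least 90% of the reads, was found in 149 SINE clusters (3.09%, interval 2.64 to 3.62) and in 1.35% (1.30 to 1.40) of clusters without a repeat class. These 149 clusters held 15.9% of all reads at SINE clusters, and without them the rate was 27.2 events per 100 reads. Without such clusters the rate of the class with no repeat label was 21.8. Both classes carried the ends that RNase T1, which cuts after G, leaves: the genome had a G just before 84.1% of SINE clusters and 84.4% of the others, and 94.0% and 96.9% ended in G.

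Strand was read from the cluster together with its flanking sequence, so the call is not independent of the cluster's own bases. Each cluster with 150 bases on either side was aligned to RN7SL2, a 7SL RNA gene of 297 bases on chromosome 14 (chr14:50329271-50329567, minus strand). A plus hit means that the RNA of the cluster runs in the sense of the 7SL-like stretch that was hit. That stretch can lie in the flank and belong to an Alu copy beside the element of the cluster. Of the SINE clusters, 2412 (50.1%) had a plus hit, 207 (4.30%) a minus hit and 2197 (45.6%) none. Among those with a hit, 92.1% (interval 91.0 to 93.1) were plus, and the share was 98.7% with flanks of 50 bases and 99.2% (508 of 512) where the hit covered the middle of the cluster. Clusters without a repeat class had the reverse pattern, with plus hits making up 36.7% of 18115 hits, 20.8% with flanks of 50 bases and 1.72% (11 of 638) over the middle of the cluster. Clusters on sense Alu copies thus carried the label SINE in the Total table, while those on reverse copies stood mainly in the class without a repeat label. Within the label, 967 of the 1285 A-rich and 70 of the 332 T-rich clusters had a plus hit, and 38 and 21 had a minus hit. Clusters with a minus hit were A-rich in 18.4% (interval 13.7 to 24.2) and T-rich in 10.1%.

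The names of the elements, which the tables of the other libraries give where those have an overlapping site, followed the 7SL hits. A name was found for 2614 of the 4816 clusters, and 2202 had none. MIR was the most frequent with 1503 clusters, 87.8% of them without a 7SL hit, while 72 had a plus hit and 111 a minus hit. The names AluJ (500 clusters), AluS (449) and AluY (58), from the oldest to the youngest Alu subfamily, had plus hits in 97.6%, 97.3% and 98.3%. Another 98 clusters were named for the monomers FLAM, FRAM or FAM, with plus hits in 93.9%. Because a name requires a site in another library, named clusters were not used to compare libraries.

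By composition, SINE clusters leaned to A. A cluster is called T-rich where its share of T exceeds its share of A by at least 0.2, A-rich in the reverse case, and balanced otherwise. A-rich were 1285 SINE clusters (26.7%, interval 25.5 to 27.9), compared to 15.4% without a repeat class, and T-rich were 332 (6.89%, interval 6.21 to 7.64), compared to 12.3%. The other 3199 were balanced. On average A made up 35.7% of the bases and T 27.9%, compared to 31.6% and 30.4%, while C (26.5%) and G (9.85%) were close to the other class (28.5% and 9.55%). The excess of A lay with the Alu copies: 40.1% of clusters with a plus hit were A-rich and 2.90% T-rich, compared to 12.7% and 10.97% of clusters without a hit. By name, 25.6% (interval 21.97 to 29.6) of AluJ, 36.1% (31.8 to 40.6) of AluS and 46.6% (34.3 to 59.2) of AluY clusters were A-rich, with intervals that overlap between AluS and AluY but not between AluJ and AluS. Of the named T-rich clusters, 204 of 236 (86.4%) were MIR. These shares cover named clusters only, and a name needs a site in another library, which T-rich clusters had more often than A-rich ones. Reverse Alu copies stood mainly outside the SINE label, as given above, so few could enter the T-rich count.

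**Figure D1:**
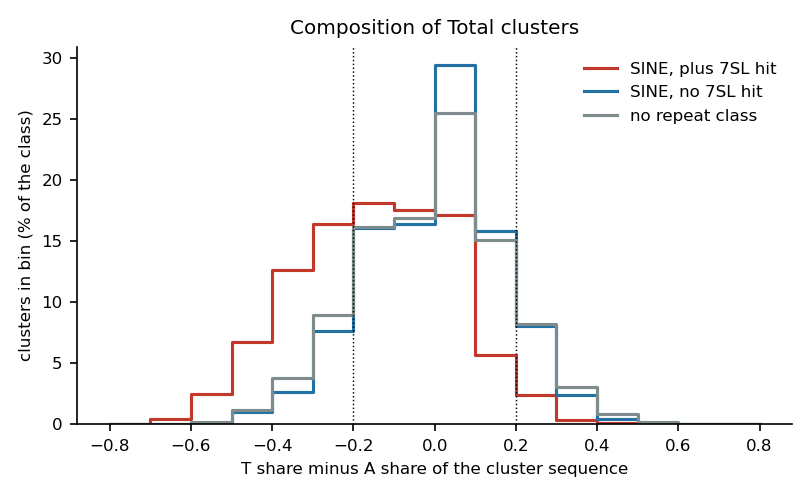
Composition of Total clusters. The x axis is the share of T minus the share of A in the cluster sequence, the y axis the percentage of each class in bins of 0.1, and dotted lines mark the limits of A-rich (-0.2) and T-rich (0.2); SINE clusters with a plus 7SL hit (n = 2412) are shifted to A, and those without a hit (n = 2197) follow the 179063 clusters with no repeat class.

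Short motifs searched on the strand of the cluster, each counted alone even where it overlaps another, showed the same division. AAAAA was present in 35.0% of clusters with a plus hit, 3.82% of those without a hit and 6.74% of clusters without a repeat class. AATAAA, the letters of the polyadenylation signal, was present in 10.4%, 2.96% and 3.02%. TTTTT was found in 2.94%, 3.19% and 6.01%, and ATTTA, the core of AU-rich elements, in 4.60%, 7.42% and 7.48%. The SMC1A cluster printed above holds TTTTT, the EIF3I cluster a longer run of T, and the KIAA1191 cluster repeats of AATAAA.

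Among clusters with a plus hit, most A-rich ones lay between the 7SL-like stretches or 3′ of them. The linker and tail of Alu were not annotated, so places are given against the hits only. Of the 2412 clusters with a plus hit, 497 (20.6%) had their middle inside a 7SL-like stretch and 616 (25.5%) between such stretches. Another 542 (22.5%) lay 5′ of them within the flank and 757 (31.4%) 3′ of them, at a median of 22 bases past the last one. A-rich were 7.65% of the clusters inside a stretch, compared to 54.1% between stretches, 60.2% on the 3′ side and 25.8% on the 5′ side. The same places differed in the other libraries. A same-strand G20 site was found for 26.6% (interval 22.9 to 30.6) of clusters inside a stretch, compared to 8.32% (6.56 to 10.5) on the 3′ side. G35 sites overlapped 9.66% inside and 2.91% on the 3′ side, G45 sites 9.86% and 3.57%, and the intervals did not overlap in either slice. In HuR replicate 1 the shares were 26.8% inside and 17.2% on the 3′ side, and in replicate 2 they were 37.8% and 33.9%, where the intervals overlap. The 5′ side had the most HuR sites, with 34.7% and 42.4%.

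**Figure D2:**
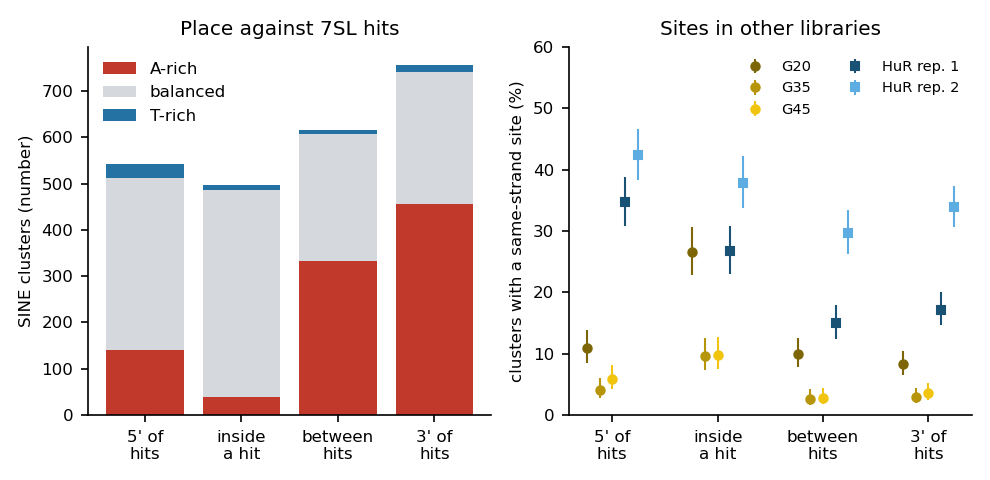
SINE clusters with a plus 7SL hit by their place against the 7SL-like stretches. Left, number of clusters per place split by composition; right, percentage with a same-strand site in each library with 95% Wilson intervals. Clusters inside a stretch are mostly balanced and have G20 sites in 26.6%, compared to 8.32% on the 3′ side, where A-rich clusters are 60.2%.

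The clusters lay mainly in introns. On the strand of the gene, 66.1% of SINE clusters were intronic, compared to 41.6% without a repeat class, and 0.374% lay in coding sequence, compared to 21.96%. The 3′ UTR held 15.4% compared to 23.2%, the 5′ UTR 0.685% compared to 1.89%, exons of noncoding transcripts 6.08% compared to 5.02%, and 11.3% lay outside genes on their strand, compared to 6.25%. Of these last, 38.1% lay opposite a gene, compared to 39.4%. All intervals of these region shares, except those opposite a gene, were apart between the classes.

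Host genes were many and each held few clusters. The 4270 clusters with a host lay in 2651 genes, of which 1739 held a single SINE cluster and 77 held 5 or more. Protein-coding genes hosted 4033 of them and lncRNA genes 222. EIF4G3, which encodes a scaffold of translation initiation, held the most, with 17 clusters, all intronic, 14 of them with a plus hit, and 123 reads in all. ERC1, a scaffold protein, held 12 intronic clusters with 237 reads, but only 3 with a plus hit. LRP1B, a receptor of the LDL receptor family, MMS22L, a replication fork repair factor, ROBO1, an axon guidance receptor, and the readthrough transcript RPS10-NUDT3 held 10 each. Where protein-coding genes overlapped, a cluster was given to the longest, so clusters of RPS10-NUDT3 can also lie in its component genes. The ephrin gene EFNA5, the ROBO ligand gene SLIT2 and TAF15, which encodes an RNA-binding protein of the FET family, held 9 each. Each of these genes also held between 84 (TAF15) and 403 (SLIT2) clusters without a repeat class. In EIF4G3, 7 of the 17 clusters had a site in HuR replicate 1 and 7 in replicate 2, compared to 1, 1 and 0 in G20, G35 and G45. In RPS10-NUDT3 a site was found for 5 and 8 of 10 clusters in the HuR replicates and for 2, 2 and 1 in the slices. No slice had a site at the clusters of LRP1B, MMS22L, ROBO1 or SLIT2, where HuR replicate 2 had sites at 5, 6, 2 and 7 clusters. Of all intronic SINE clusters, 8.10%, 2.64% and 3.33% had a site in G20, G35 and G45 and 31.2% and 42.0% in the HuR replicates, and with 9 to 17 clusters a gene nothing particular to a gene is read from these counts. The remaining gene among the 10 with the most clusters, a lncRNA gene, is not described here.

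The 742 clusters in 3′ UTRs lay in 557 genes, and 55.9% of them had a plus hit. They were deeper than the median SINE cluster (median 10 reads), and 26.8% were A-rich and 7.55% T-rich, close to SINE clusters as a whole. TIMM50, a subunit of the mitochondrial import machinery, held 8 with 6 to 275 reads. DFFA, the inhibitor of the caspase-activated DNase, HAPSTR1, HIF1AN, the hydroxylase that restrains HIF1A, and RBM3, a cold-inducible RNA-binding protein, held 5 each. In HAPSTR1 the 5 clusters had 139 reads in HuR replicate 2, 8 in replicate 1, 2 in G20 and none in G35 and G45.

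Gene lists linked to SINEs gave the following. Of 515 ZNF genes, which encode zinc finger proteins, 79 (15.3%) hosted a SINE cluster, compared to 2496 of 20149 protein-coding genes (12.4%). Among genes that held any cluster of either class the shares were 21.2% and 22.4%. The 120 clusters in ZNF genes were 69 intronic and 41 in 3′ UTRs, and 70 had a plus hit. ZNF146 held 7, ZNF586 5 and ZNF566 4, the last all in the 3′ UTR. Of 7 genes known for inverted Alu copies in their 3′ UTR, MAVS hosted none beside 25 clusters without a repeat class, and NICN1, LIN28A and CTSS held no cluster of either class. EIF2AK2, which encodes the double-stranded RNA sensor PKR, hosted 3 in its 3′ UTR with 37 reads, all with a plus hit. XIAP, an inhibitor of apoptosis, hosted 1 in its 3′ UTR with 18 reads, and MDM2, the ubiquitin ligase of p53, 2 with 13 reads outside the 3′ UTR. At the MDM2 clusters HuR replicate 2 had 46 reads and replicate 1 had 1, and no slice had any. The polymerase III genes RN7SL2 and BCYRN1 hosted none, and RN7SL1 was not found by name in the annotation used here.

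In the other 5 libraries, SINE clusters had a same-strand site less often than Total clusters as a whole. A site of G20 overlapped 545 SINE clusters (11.3%, interval 10.5 to 12.2), against 17.8% of all 200602 Total clusters and 18.5% of those without a repeat class. For G35 the count was 184 (3.82%, interval 3.31 to 4.40), against 5.19% of all and 5.11% without a repeat class. For G45 it was 224 (4.65%, interval 4.09 to 5.28), against 6.35% and 6.34%. HuR replicate 1 had a site at 1487 (30.9%, interval 29.6 to 32.2), against 37.9% and 38.6%, and HuR replicate 2 at 2005 (41.6%, interval 40.2 to 43.0), against 49.4% and 50.1%. The HuR mean was 36.3% ± 7.61 (SD, n = 2), compared to 44.3% ± 8.17 without a repeat class. The share was lower in each of the 2 replicates. At 2098 clusters (43.6%) no other library had a site, compared to 31.6% without a repeat class. All 5 had one at 66 (1.37%, compared to 1.31%). Both HuR replicates but no slice had one at 705 (14.6%, compared to 21.2%). A slice without either HuR replicate was seen at 198 (4.11%, compared to 8.39%).

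Reads in Total moved with these shares. With exactly 5 reads in Total, 6.40% of SINE clusters had a G20 site and 22.9% and 34.4% a site in the HuR replicates, and with over 25 reads the shares were 31.8%, 49.2% and 55.3%. Clusters without a repeat class had 8.86%, 33.3% and 46.3% with 5 reads and 37.5%, 44.0% and 53.3% with over 25 reads. SINE clusters were thus below the other class in HuR at 5 reads, while over 25 reads the intervals of the classes overlapped in both HuR replicates. Within introns alone the order in G20 was the reverse, with a site at 8.10% (interval 7.20 to 9.10) of SINE clusters compared to 5.62% (5.46 to 5.79). G35 had 2.64% compared to 2.28% and G45 3.33% compared to 2.71%, with intervals that overlap. HuR stayed lower in introns, with 31.2% and 42.0% compared to 45.1% and 57.2%.

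T-rich SINE clusters had sites more often than A-rich ones in each of the 5 libraries. In HuR replicate 1, 54.8% (interval 49.4 to 60.1) of T-rich clusters had a site, compared to 35.4% (33.8 to 37.1) of balanced and 13.5% (11.7 to 15.4) of A-rich ones. In HuR replicate 2 the shares were 61.7%, 45.2% and 27.6%. The HuR means were 58.3% ± 4.90 (SD, n = 2) for T-rich and 20.5% ± 10.02 (SD, n = 2) for A-rich clusters, and the replicates of the compositions did not overlap. G20 sites were found at 13.9% of T-rich, 12.8% of balanced and 6.93% of A-rich clusters. For G35 these values were 6.63%, 4.38% and 1.71%, and for G45 9.04%, 5.03% and 2.57%. The same order held without a repeat class, where T-rich clusters had a site in 59.9% and 69.5% in the HuR replicates and A-rich ones in 20.5% and 34.3%. Among the SINE clusters that no other library covered, 37.8% were A-rich and 3.81% T-rich, compared to 24.5% and 6.29% without a repeat class.

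**Figure D3:**
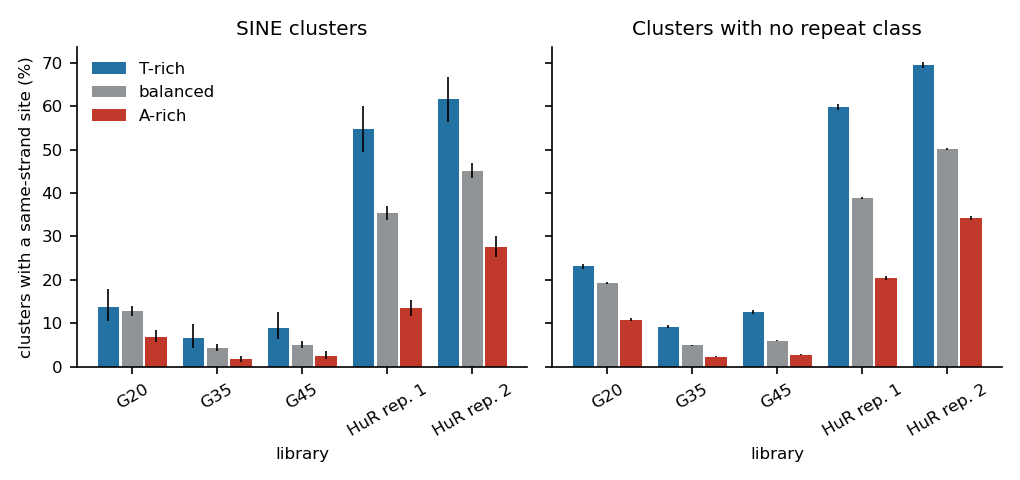
Percentage of Total clusters with a same-strand site in each library, by composition, with 95% Wilson intervals. T-rich SINE clusters reach 54.8% and 61.7% in the HuR replicates and A-rich ones 13.5% and 27.6%, and the order is the same for clusters with no repeat class.

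In reads, too, T-rich clusters were above A-rich ones in each slice and HuR replicate, with wide differences in how the reads were spread. Unlike the shares, however, the reads at T-rich clusters were higher in G35 and G45 than in HuR. At T-rich SINE clusters the sites held 481 RPM in HuR replicate 1 and 425 in replicate 2, compared to 85.8 in Total and 78.7, 1289 and 1101 in G20, G35 and G45. A-rich clusters held 83.5 and 133 RPM in HuR, compared to 581 in Total and 14.3, 105 and 119 in the slices. Most of the T-rich reads came from few clusters, since the 3 with the most reads held 76.6% to 85.1% of them in the slices, 79.6% in HuR replicate 1 and 45.6% in replicate 2. For A-rich reads the same shares were 61.2% to 86.6% in the slices and 62.0% and 21.8% in HuR, and HYDIN alone gave 6285 of the 20886 A-rich reads in Total. A per-cluster count is less open to single clusters. RPM in both HuR replicates lay above all 3 slices at 826 SINE clusters (17.2%), against 24.3% of all Total clusters. It did so at 122 of the T-rich (36.7%) and at 77 of the A-rich SINE clusters (5.99%). Both shares were below those without a repeat class, 43.4% of T-rich and 10.8% of A-rich clusters. No read minimum was set, and 705 of the 826 had reads in both HuR replicates and none in a slice. The count thus mostly restates the presence of sites, of which HuR had more (2411483 and 4024972) than the slices (259337 to 706883). RPM in both HuR replicates lay below all slices at 14 SINE clusters (0.291%), against 0.745% of all.

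Sense Alu clusters differed from clusters without a 7SL hit, which were mostly MIR where a name was found, and did so in opposite directions in HuR and G20. Clusters with a plus hit had HuR sites in 22.5% (interval 20.9 to 24.2) and 35.6% (33.7 to 37.5), compared to 38.8% (36.8 to 40.8) and 46.8% (44.8 to 48.9) of SINE clusters without a hit. In G20 the order was the reverse, with 13.1% (11.8 to 14.5) compared to 9.47% (8.31 to 10.8). This excess lay with clusters inside a 7SL-like stretch, 26.6% of which had a G20 site. Clusters 5′ of the stretches (10.9%), between them (9.90%) and 3′ of them (8.32%) had intervals that overlap the one without a hit. G35 had 4.48% compared to 3.23% and G45 had 5.18% compared to 4.10%, with intervals that overlap. The 207 SINE clusters with a minus hit had HuR sites in 44.4% (37.8 to 51.3) and 57.0% (50.2 to 63.6) and G20 sites in 10.6% (7.12 to 15.6), which overlaps the G20 interval of the plus hits. None of these 207 had a minus hit over its own middle. By name 111 of them were MIR and 18 Alu, so they are not a class of reverse Alu copies. Among balanced clusters alone the HuR shares were 29.2% and 42.0% with a plus hit compared to 39.4% and 46.5% without, and in G20 17.2% compared to 9.55%. Among A-rich clusters the G20 shares were 6.93% with a plus hit and 6.07% without, with intervals that overlap. Clusters without a repeat class that had a minus hit within the flanks had HuR sites in 54.4% and 66.1% and G20 sites in 9.99%, compared to 36.8%, 51.4% and 8.70% of those with a plus hit. Only 627 of these 11474 minus clusters had the hit over their own middle, and for those the HuR shares were 56.3% and 56.6% and the G20 share was 18.0%. Both HuR replicates lay above all slices at 40.8% of the 11474 clusters, compared to 10.99% of SINE clusters with a plus hit and 22.6% of those without a hit. In the class without a repeat label the shares were 24.9% with a plus hit and 24.0% without a hit. Here, too, no read minimum was set.

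**Figure D4:**
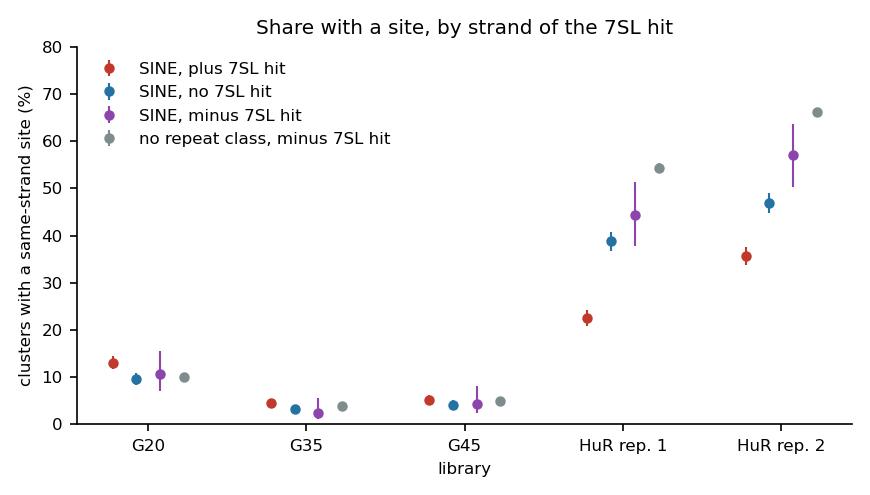
Percentage of clusters with a same-strand site in each library, by the strand of the 7SL hit, with 95% Wilson intervals. Of the 3 SINE classes, clusters with a plus hit have the smallest shares in both HuR replicates (22.5% and 35.6%). Their G20 share (13.1%) is above that without a hit (9.47%), and is highest inside a 7SL-like stretch (26.6%). Clusters with no repeat class and a minus hit have 54.4% and 66.1% in HuR.

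Summed over all SINE clusters, sites held 2018 RPM in Total, 331 in G20, 3652 in G35, 3909 in G45, 2147 in HuR replicate 1 and 1658 in replicate 2, a HuR mean of 1903 ± 346 (SD, n = 2). These sums rest on few clusters and on the sites that dominate a library. The 3 clusters with the most reads held 41.7% of the SINE reads in G20, 60.9% in G35, 57.0% in G45, 37.5% and 18.9% in HuR and 16.5% in Total. When the 10 leading clusters of each library were left out, the sums were 122 RPM in G20, 742 in G35, 901 in G45, 917 as the HuR mean and 1552 in Total, which put Total above both slices G35 and G45. With the 10 largest sites of any kind taken out of the library total, G20 rose to 1407 RPM and Total to 5298. Summed over reads, SINE sites outside Total had 100 events per 100 reads in G20, 102 in G35, 104 in G45 and 91.9 and 103 in HuR, compared to 71.2, 78.5, 81.6, 72.3 and 99.9 at sites of clusters without a repeat class. These sums, too, weigh clusters by their reads. The median SINE site of at least 5 reads had 66.7 events per 100 reads in G20, compared to 15.8, and 97.9 in G45, compared to 60, while in G35 and both HuR replicates the median was 100 in both classes. Sites of at least 5 reads with nearly all reads converted at 1 location made up 31.8% of such SINE sites in G20, 47.5% in G35, 41.7% in G45, 16.6% in HuR replicate 1 and 20.8% in replicate 2. Without a repeat class these shares were 5.56%, 36.8%, 23.4%, 3.90% and 16.3%. In the deposited site tables a 4SU conversion and a fixed T-to-C difference from the reference are counted alike, and their parts were not tested.

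Of the 10 clusters with the most reads in Total, the 9 described here had a lower RPM in each other library. The HYDIN cluster, in the 3′ UTR of a gene for a protein of motile cilia, held 6285 reads in Total, all of them converted at a single location. It held 42 reads in G20, 19 in G35, 26 in G45 and 17 and 114 in HuR, again all converted. In RPM that was 175 in Total and between 1.09 and 3.55 in the others. The MIRc cluster on chromosome 3 held 3533 reads with 28 events, and at most 12 reads elsewhere, none with an event. The RPS18 cluster, in an intron of a gene for a protein of the small ribosomal subunit, held 1588 reads with 1582 events in Total and 25, 4, 1, 1 and 0 reads in G20, G35, G45 and HuR replicates 1 and 2. An AluJo cluster on chromosome 1 (chr1:214372345-214372375, plus strand) held 2172 reads with 52 events, and a FLAM_C cluster opposite an intron of SPTBN4 held 524 with 24. The cluster in the 3′ UTR of DCTPP1, a nucleotide pyrophosphatase gene, held 987 reads with 247 events at 10 locations, and 7 and 34 reads in HuR. Fully or nearly fully converted clusters in an intron of ENSG00000288698 (403 of 403 reads) and opposite an intron of ANKRD42 (381 events in 382 reads) had no read in any other library. The remaining cluster of the 10, in a lncRNA gene, is not described here and did not share this order, since its RPM was higher in HuR replicate 2 than in Total.

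The cluster in MIR5100, a microRNA gene annotated within a MIR element, held 509 reads with 507 events at 1 location in Total. It held 370 reads in G20, 30 in G35, 56 in G45, 26 in HuR replicate 1 and 90 in replicate 2, or 9.57, 4.85, 7.43, 2.73 and 2.80 RPM, compared to 14.2 in Total. The mature miRNA from RefSeq is shown with its seed, bases 2 to 8, in capitals.
hsa-miR-5100: uUCAGAUCccagcggugccucu
Of the 19 bases of the cluster, 18 were shared with the miRNA, from its base 5 to its last base 22. The cluster thus starts inside the seed and lacks the 5′ end of the miRNA.

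Slices and HuR had their own leading clusters, with 6 to 90 reads in Total. A cluster in an intron of PSD3, an exchange factor for ARF6, held 17 reads in Total and 2412, 6808 and 7188 reads in G20, G35 and G45. In HuR it held 140 reads in replicate 1 and 5261 in replicate 2. These were 62.4, 1100 and 953 RPM in the slices, 14.7 and 164 in HuR and 0.473 in Total, with 2412 events in G20 and 5256 in HuR replicate 2. PRR5-ARHGAP8, a readthrough transcript, held 43.8, 816 and 705 RPM in the slices, 36.2 and 117 in HuR and 0.167 (6 reads) in Total. The cluster in DHX8, which encodes a splicing helicase, held 15.7, 309 and 222 RPM in the slices and 7.35 and 28.9 in HuR, compared to 1.14 in Total. In all 3, G35 and G45 were highest and HuR replicate 1 was lowest of the immunoprecipitated libraries.

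Other clusters were led by HuR replicate 1 or varied within the slices. The cluster opposite RBFOX1 held 570 RPM in G45 and 234 in HuR replicate 1, compared to 84.7 in G35, 37.03 in HuR replicate 2, 32.6 in G20 and 0.195 in Total. The PADI3 cluster, in an intron of a peptidylarginine deiminase gene, held 306 RPM in HuR replicate 1, 26.6 in replicate 2, 9.03, 112 and 108 in the slices and 0.835 in Total. The cluster in CDC42EP1, a CDC42 effector gene, held 266 RPM in HuR replicate 1 and 1.96 in replicate 2, compared to 1.55, 84.9 and 13.0 in the slices. Its 2.51 RPM in Total (90 reads) was above G20 and HuR replicate 2. MALRD1 held 41.4 RPM in HuR replicate 2 and 8.08 in replicate 1, with 6.42, 37.5 and 58.8 in the slices and 0.390 in Total. For PSD3, RBFOX1, PADI3 and CDC42EP1 the SD of the 2 HuR replicates exceeded their mean, so the HuR mean is not ranked against the slices there. Both replicates lay below G35 and G45 in PSD3 and below G45 opposite RBFOX1. Both lay above G20 opposite RBFOX1 and in PADI3 and CDC42EP1, and the other slices lay between the replicates. Except for PADI3, at least 90% of the reads at these clusters were matched by events in each slice and HuR replicate. In PADI3 there were 1443 events in 2913 reads of HuR replicate 1.

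**Figure D5:**
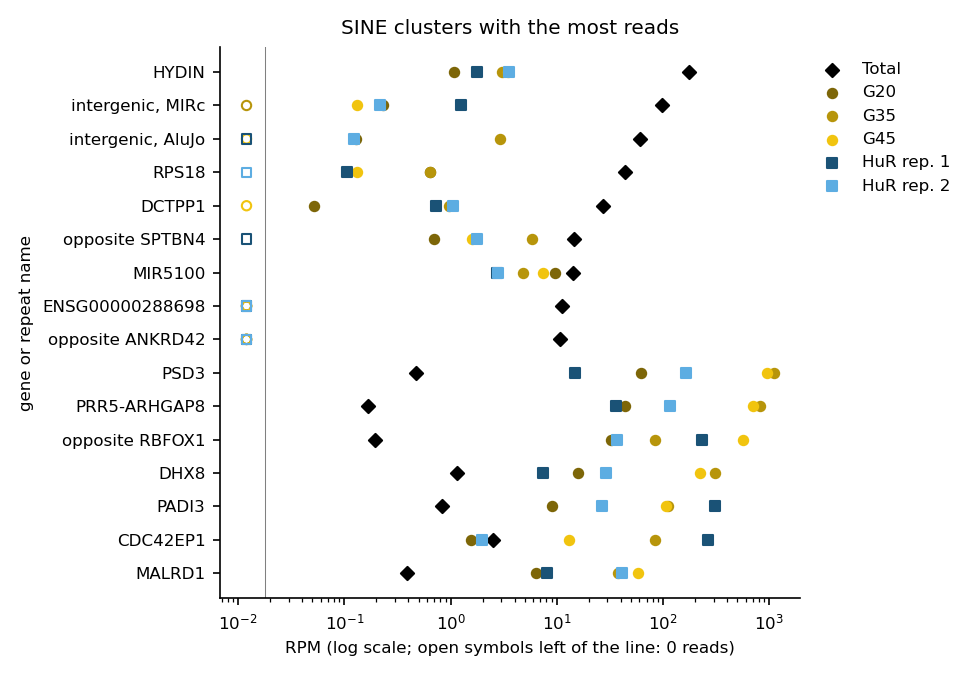
RPM at the SINE clusters with the most reads in Total (upper 9 rows, without the cluster in a lncRNA gene) and in slices or HuR (lower 7 rows), on a log scale, with open symbols left of the line for libraries without a read. Total lies above the other libraries in the 9 upper rows and below nearly all of them in the lower rows.

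The A-rich and T-rich examples printed first, chosen for their number of conversion locations, had the following values. KIAA1191 held 204 reads in Total with 49 events at 7 locations, 9 reads in HuR replicate 2, 1 in G20 and none in G35, G45 and HuR replicate 1. SMC1A, which encodes a cohesin subunit, held 99 reads with 20 events at 8 locations in Total, 21 reads in HuR replicate 2 and 1 in replicate 1, with 1 read in G20. EIF3I, which encodes a subunit of the translation initiation factor eIF3, held 38 reads with 13 events at 5 locations, with 36 and 2 reads in HuR replicates 2 and 1 and none in the slices. In these 3 clusters, HuR replicate 2 had more reads than each slice and than replicate 1.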

How the data were processed

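Per the labels and the study's methods, the authors mapped 50 bp reads to hg19 with Bowtie, allowing 2 mismatches, and PARalyzer kept reads that map to 1 place with at most 2 T-to-C mismatches. Per site, the authors deposited 3 counts (reads, T-to-C locations, T-to-C events) without normalization. PCR duplicate removal is not given in the sources used here. Reads that fit several copies of a repeat equally well are therefore not in these counts.

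Of the deposited tables, the Total clusters and the groups of all 6 libraries were used. Clusters and sites overlapped where they shared at least 1 base on the same strand, and each site's reads were counted once per sum. RPM divides by all reads of the library. Intervals are 95% Wilson intervals. Strand of the element came from blastn 2.17.0 (word size 7, E-value at most 0.001) against RN7SL2 with flanks of 150 bases. RN7SL1 had been planned but is not in the annotation by name. Regions and hosts came from GENCODE release 44 mapped to GRCh37, at the middle of each cluster. Among overlapping genes, the host was a protein-coding gene before a lncRNA gene before others, and then the longest. Readthrough transcripts, such as PRR5-ARHGAP8, can thus take clusters that also lie in a component gene.

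Named clusters were the 10 with the most reads in Total, the 3 with the most in each other library, and the 3 A-rich and T-rich clusters of at most 30 bases with the most reads. The 10 genes with the most SINE clusters, the 5 with the most in 3′ UTRs and 3 gene lists were named too. Members, lists and rules were chosen with earlier results of these data known. No test of conditions was made. Overlap and strand calls were tested on simulated data: all 690 overlaps, 300 of 300 plus and 300 of 300 minus copies were recovered, and 1 of 300 random sequences was called plus. Alternatives changed the composition limit, flanks, strand, overlap, read minimum, library total and replicates. Python 3.11.15, numpy 2.4.6, pandas 2.3.3, scipy 1.17.1, pysam 0.24.0, matplotlib 3.10.9 and samtools 1.23.1 were used. The deposited cluster tables of the other libraries were not used here.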

Additional observations from a re-analysis of the deposited data

Results flagged for a closer look

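The share of SINE clusters with a same-strand site differed between clusters with a plus 7SL hit and clusters without a hit, and did so in opposite directions in the slices and in HuR. For the slices G20, G35 and G45, plus hit minus no hit was 3.59, 1.25 and 1.09 percentage points. For the HuR replicates 1 and 2 it was -16.3 and -11.3 points. All 3 slices moved one way and both HuR replicates the other. The difference between slices and HuR was not tested. The intervals of the shares overlap in G35 and G45. In the slices the excess lay with plus-hit clusters inside a 7SL-like stretch (26.6% in G20, 9.66% in G35, 9.86% in G45). Clusters without a hit had 9.47%, 3.23% and 4.10%. Plus-hit clusters outside a stretch had intervals that overlap those without a hit, at each place and in each slice.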

How the results depend on the processing

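Limits: each slice and Total is 1 library, depth differed between libraries, clusters were called in Total alone, and shares of clusters with a site move with the reads in Total. No paired analysis was possible because only HuR carries more than 1 replicate number and no comparison between groups was tested. Of 67 values under other settings, 34 moved by less than 1 SD of the HuR replicates or by less than the counting interval, 31 moved by more and 2 changed sign. The values that leave out a HuR replicate are among the 34 by construction, since each of 2 replicates lies within 1 SD of their mean. Without either HuR replicate, the HuR share of clusters with a site ranged from 30.9% to 41.6%, the HuR RPM from 1658 to 2147 and T-rich minus A-rich from 34.1 to 41.4 percentage points, around a mean of 37.7. With a composition limit of 0.1 or 0.3 the T-rich share became 17.5% or 1.70%, and T-rich minus A-rich in HuR 26.3 or 45.9 points. With at least 25 reads in Total, the shares with a site were 31.3% (G20), 13.4% (G35), 16.8% (G45) and 52.1% (HuR), the T-rich share 3.91% and the intronic share 39.4%. With sites of at least 5 reads they were 2.33%, 2.49%, 2.26% and 15.8%, and T-rich minus A-rich in HuR was 21.2 points. On the opposite strand that difference was 0.146 in G20, -0.0778 in G35, 1.13 in G45 and -1.31 in HuR. Few such sites exist, since counting either strand gave HuR sites at 37.7% of clusters compared to 36.3%, so nothing is read from these signs. Regions on either strand gave 69.5% intronic. Conversions were 31.9 events per 100 reads with at least 2 locations and 33.1 without the 10 clusters with the most reads. Without those, RPM was 122 (G20), 742 (G35), 901 (G45), 917 (HuR) and 1552 (Total). With totals that leave out the 10 largest sites it was 1407 (G20), 4549 (G35), 4952 (G45) and 5298 (Total). Plus hits were 98.7% of hits with flanks of 50 bases and 99.2% over the middle of the cluster, the latter chosen after seeing the data. An overlap of at least 50% of the cluster and either strand moved no value beyond its spread. The cause of these changes was not tested.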

Other observations

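A group of SINE clusters that share the letters GTTNGA held a large part of the SINE reads in the slices, mostly at few clusters. The group was chosen after these values had been seen. The letters were searched on the strand of the cluster. They were present in 25 SINE clusters (0.519%, compared to 0.225% of clusters without a repeat class), of which 9 read GTTCGA and 8 GTTTGA. The B box of RNA polymerase III promoters, found in tRNA genes and in Alu elements, is known to carry GTTCGA. These 25 clusters held 37.5% of all reads at SINE clusters in G35, 26.9% in G45 and 22.4% in G20, compared to 3.91% and 10.5% in HuR replicates 1 and 2 and 0.840% in Total. Only 10 of the 25 had any read in G35 or in G45, and 16 in G20. PRR5-ARHGAP8 and DHX8 are among them. Of the 8477 reads of the group in G35, PRR5-ARHGAP8 gave 5051, DHX8 1912 and the cluster on chromosome X described next 1047. The values are thus those of few clusters and not of the letters, and the read share of such clusters without a repeat class was not taken.

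A cluster outside genes on the X chromosome (chrX:13045051-13045066, minus strand, named MIRb) was another of the 25 and was T-rich.
MIRb on chromosome X: TcgTaggTTTgagTcc
It held 98 reads in Total, all converted at 1 location, and 169 RPM in G35, 37.3 in G45, 2.77 in G20, 9.66 and 4.14 in HuR and 2.73 in Total.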
